A study of Mus musculus with 4 samples.

Results

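The genes described here are 46 genes of the cell division cycle, chosen as a named list and found on the arrays by the gene name that the scanner files give each probe. They divide into 23 genes of the G1/S step and DNA replication, 18 genes of G2 and mitosis, and 5 inhibitors of the cycle. The array held 27617 genes, and all 46 were on it, with 75 probes. Probes were tested if at least 1 diet had both of its arrays well above background, which left 43 of the 46 among 17736 tested genes.

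RNA came from the white fat of C57BL/6 females, an inbred strain in wide laboratory use. One group was fed a high fat diet (HFD, the product High fat diet 32) and the other a low fat diet (LFD, the product CE2), each for 18 weeks from 8 weeks of age, with no other treatment or allele named in the labels. The labels describe each sample as fat mixed from 3 mice, with 2 samples per diet and 1 array each, and name no fat depot. They do not say whether the samples of a diet came from separate pools of mice, so p-values measure only how far these samples spread, and that spread may be technical.

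A dividing cell passes through G1, when cyclin D and cyclin E kinases release the E2F transcription factors, through S phase, when licensed origins fire and DNA is copied, and through G2 into mitosis, when cyclin A and cyclin B kinases, Aurora kinases and the spindle checkpoint act. Most of the genes for replication are transcribed from G1/S under E2F, and most of those for mitosis from G2 under complexes that bind CCAAT boxes and the CHR element, so their transcripts mark cells in those phases. In adult fat, mature adipocytes rarely divide, whereas macrophages, other immune cells, progenitor cells and endothelial cells can do so. Cycle inhibitors bind cyclin-dependent kinases, and several of them are expressed in cells that do not divide.

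Some promoters of these genes hold motifs that are usually tied to transcription in one phase of the cycle, and a few are shown for that reason. RefSeq promoter sequences of build GRCm38.p6, from 250 bases before to 50 bases after a transcript start, were found for 40 of the 46 genes, with 47 starts, of which 15 lay more than 20 bases inside the gene. The letters searched on both strands were CCAAT, the box bound by NF-Y; TTTGAA, the CHR element bound by the DREAM and MuvB complexes; and TTCCCGC or TTGGCGC, cores of E2F sites. The sequences below give the 250 bases before the start, 5′ to 3′ on the gene's strand, with these matches in capitals and overlapping matches run together. Ccne1 (chr7:38107491-38107740, minus strand), Cdt1 (chr8:122567765-122568014, plus strand), Ube2c (chr2:164769679-164769928, plus strand), Ccnb1 (chr13:100786487-100786736, minus strand) and Cdkn2c (chr4:109666757-109667006, minus strand) are shown because they were called in the diet comparison. Mcm6 (chr1:128359706-128359955, minus strand), Cdk1 (chr10:69352913-69353162, minus strand) and Ccnb2 (chr9:70421555-70421804, minus strand) were added after the search because they hold the letters typical of their phase. Rrm1, with 2 CCAAT matches and 1 E2F core, was chosen in the same way and is not shown.
Ccne1: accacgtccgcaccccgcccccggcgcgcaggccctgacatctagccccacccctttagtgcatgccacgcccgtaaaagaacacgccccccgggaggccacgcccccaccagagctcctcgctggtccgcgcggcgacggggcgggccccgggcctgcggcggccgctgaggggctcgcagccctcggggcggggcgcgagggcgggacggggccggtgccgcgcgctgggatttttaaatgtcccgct
Cdt1: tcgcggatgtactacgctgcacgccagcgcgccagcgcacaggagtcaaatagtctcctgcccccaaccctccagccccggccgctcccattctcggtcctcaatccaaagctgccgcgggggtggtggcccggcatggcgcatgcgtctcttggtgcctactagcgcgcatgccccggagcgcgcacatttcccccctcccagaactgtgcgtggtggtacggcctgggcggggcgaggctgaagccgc
Mcm6: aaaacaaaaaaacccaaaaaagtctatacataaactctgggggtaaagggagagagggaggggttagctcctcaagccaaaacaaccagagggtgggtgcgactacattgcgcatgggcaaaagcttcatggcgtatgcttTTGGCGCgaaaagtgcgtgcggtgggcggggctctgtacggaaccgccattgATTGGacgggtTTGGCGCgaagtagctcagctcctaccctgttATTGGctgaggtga
Ube2c: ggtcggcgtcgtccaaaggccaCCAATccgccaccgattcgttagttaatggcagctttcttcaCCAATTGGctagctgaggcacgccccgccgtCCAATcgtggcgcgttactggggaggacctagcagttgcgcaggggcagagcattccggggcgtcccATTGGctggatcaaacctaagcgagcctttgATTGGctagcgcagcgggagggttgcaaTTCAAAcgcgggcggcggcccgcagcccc
Ccnb1: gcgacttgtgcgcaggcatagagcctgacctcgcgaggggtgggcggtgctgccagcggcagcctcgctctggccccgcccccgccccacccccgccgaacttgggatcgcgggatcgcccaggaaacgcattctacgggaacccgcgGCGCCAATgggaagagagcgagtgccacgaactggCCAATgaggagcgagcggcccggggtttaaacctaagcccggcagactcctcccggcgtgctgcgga
Cdk1: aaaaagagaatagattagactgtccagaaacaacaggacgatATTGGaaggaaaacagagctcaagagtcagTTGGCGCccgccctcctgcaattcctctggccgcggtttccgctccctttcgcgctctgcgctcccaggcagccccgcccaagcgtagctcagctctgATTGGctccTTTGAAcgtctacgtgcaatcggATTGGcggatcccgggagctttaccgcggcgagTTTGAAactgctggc
Ccnb2: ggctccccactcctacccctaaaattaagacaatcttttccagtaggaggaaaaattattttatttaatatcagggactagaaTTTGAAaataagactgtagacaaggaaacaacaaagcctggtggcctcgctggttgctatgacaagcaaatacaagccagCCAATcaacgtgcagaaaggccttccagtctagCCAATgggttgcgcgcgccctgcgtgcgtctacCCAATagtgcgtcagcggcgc
Cdkn2c: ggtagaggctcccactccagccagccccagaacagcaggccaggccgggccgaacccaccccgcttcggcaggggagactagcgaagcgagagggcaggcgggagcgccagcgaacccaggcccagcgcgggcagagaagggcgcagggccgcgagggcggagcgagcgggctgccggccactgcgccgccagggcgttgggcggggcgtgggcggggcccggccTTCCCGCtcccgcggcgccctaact

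Ube2c held 6 CCAAT matches, of which a pair overlapped, and 1 CHR match on the minus strand. Cdk1 held 3 CCAAT and 2 CHR matches and 1 E2F core. Ccnb1 held 2 CCAAT matches, of which 1 overlapped an E2F core, and no CHR match in this window. Ccnb2 held 3 CCAAT matches before the start, and 1 of its 2 CHR matches lay after the start, outside the sequence shown. Mcm6 held 2 E2F cores and 2 CCAAT matches, and Cdkn2c 1 E2F core. Cdt1 held 2 E2F cores, both after the start, and Ccne1 held none of these letters in the window. E2f1 and Aurka were also called but are not shown, because the only start listed for them lay 466 and 316 bases inside the gene.

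Both a CCAAT box and a CHR element stood in 12 of the 17 promoters of G2/M genes, or 70.6%, against 6.95% of all 32851 promoters. Of the 22 promoters of G1/S and replication genes 9.09% held both, and of the 8 promoters of cycle inhibitors 0%. An E2F core stood in 45.5% of the G1/S promoters, 17.6% of the G2/M promoters and 25% of the inhibitor promoters, against 6.81% of all promoters. A CCAAT box, with or without a CHR element, stood in 59.1%, 88.2% and 37.5% of the 3 groups and 37.4% of all promoters. The shares count every listed start, so the 17 G2/M promoters belong to 16 genes, and starts inside a gene are included. Among the G2/M promoters with both motifs, Prc1 was counted at starts 6 and 31 bases inside the gene. The Aurka start lay 316 bases inside. In the G1/S group, an E2f2 start with both motifs lay 8508 bases inside. These shares describe letters in a window, and no factor binding was measured.

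**Figure D1:**
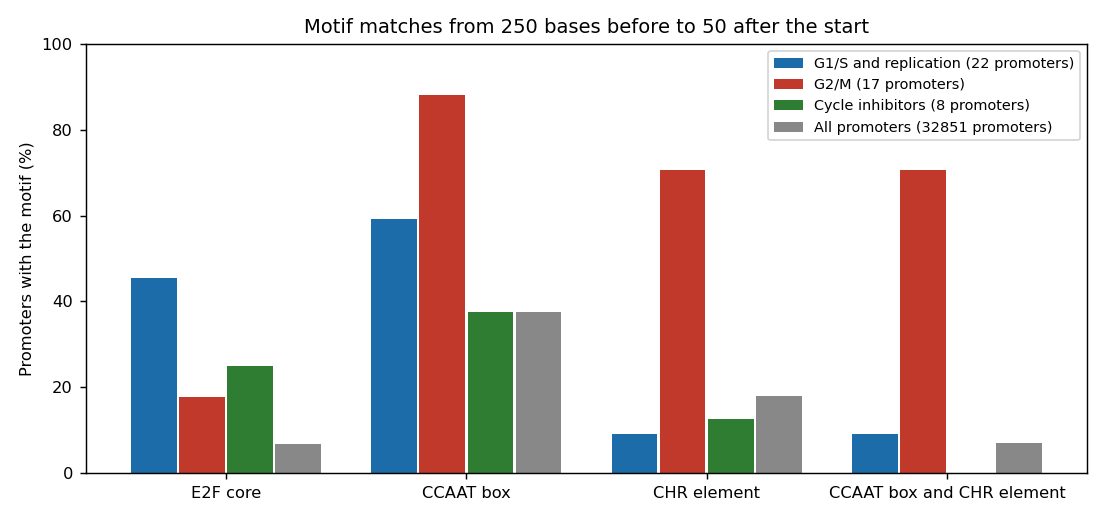
Share of promoters, in percent, that hold an E2F core, a CCAAT box, a CHR element, or both a CCAAT box and a CHR element on either strand, for the 3 groups of cell cycle genes and for all 32851 promoters. The 70.6% of G2/M promoters with both a CCAAT box and a CHR element stand against 6.95% of all promoters. Every listed start of a gene is counted, also starts inside the gene.

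All 4 arrays lay on 1 slide and were read in 1 scan, and 21313 to 27938 probes per array stood well above background, the fewest on HFD replicate 2. Signals are given below as relative signal, the processed brightness of a probe divided by its array's 75th percentile, so that 1 stands for that percentile. Values of different probes are not compared, since brightness also depends on the probe. A gene was called where limma's adjusted p (Benjamini-Hochberg over all 26054 tested probes) was under 0.05, and every adjusted p below comes from that fit.

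The comparison of diets asked which of these genes differed in fat between HFD and LFD mice. Of the 43 tested genes, 8 were called higher in HFD, Ccne1, E2f1, Cdt1, Mcm3, Pcna, Ube2c, Aurka and Ccnb1, with changes of 1.53-fold to 2.12-fold, and 1, the inhibitor Cdkn2c, was called lower, by 1.90-fold. Over all tested genes 5.75% were called higher and 5.61% lower. The median log2 change was 0.92 over the 43 genes and 0.02 over all tested genes, and 39 of the 43 changes were positive. Both HFD arrays lay above both LFD arrays for 35 of the 43 genes, against 36.2% of all tested genes, and below them for 2, against 32.7%. Rrm2, Aurkb and Top2a passed the filter through the HFD arrays alone, so a difference of some size was built into their inclusion. Without these 3, 32 of 40 genes had both HFD arrays above both LFD arrays and the median was 0.91. Ccne2 and Ccnb1 passed through the LFD arrays alone. In bulk tissue, fewer cells of a type and less RNA per cell cannot be told apart.

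**Figure D2:**
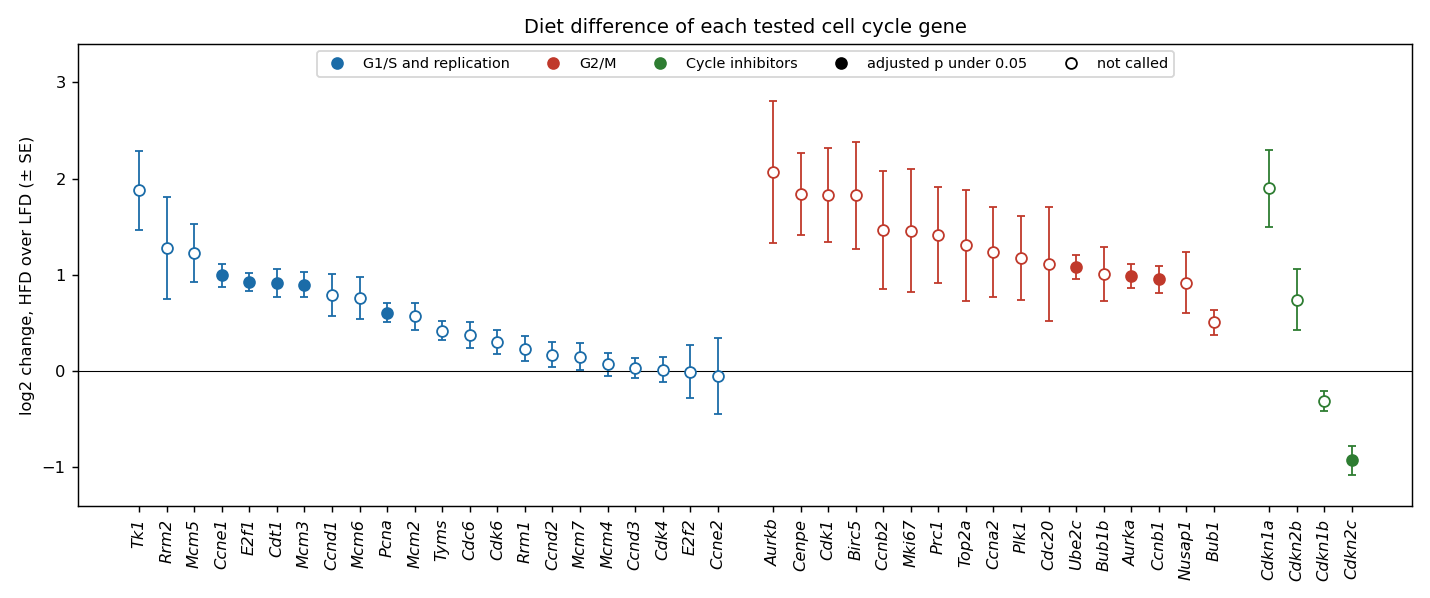
Log2 change of each tested cell cycle gene, HFD over LFD, with the standard error from limma (2 arrays per diet), ordered by size within the 3 groups; filled points had an adjusted p under 0.05. The 17 G2/M genes lie between 0.51 and 2.07, and the widest error bars belong to genes that were not called.

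Among the 10 regulators of the G1/S step, Ccne1 and E2f1 were called higher in HFD, 7 others were not called, and Cdk2 was not tested. Ccne1, cyclin E1, which activates Cdk2 at the start of S phase, had a relative signal of 2.60 and 2.64 on the HFD arrays, against 1.22 and 1.41 on the LFD arrays. That is 1.99-fold higher (log2 change 0.99, SE 0.11, n = 2 per diet, adjusted p = 0.0239), and a second probe was also called higher, by 0.62 on the log2 scale. Both probes are placed at chr7:38882937-38882960 in the files' build mm9, so the second is not shown to be a separate site. That span is shorter than the 60 bases of a probe. E2f1, the activating E2F factor that drives replication genes, had 0.636 and 0.592 in HFD, against 0.321 and 0.325 in LFD. The LFD arrays gave nearly equal signals, and E2f1 was 1.90-fold higher in HFD (log2 change 0.93, SE 0.10, adjusted p = 0.0210; probe at chr2:154386004-154386063), with 0.80 on a second called probe.

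Ccnd1, cyclin D1, which couples growth signals to the cycle, had 1.89 and 2.01 in HFD, against 1.37 and 0.923 in LFD. Its HFD arrays lay above the LFD arrays, and the change of 0.79 was not called (adjusted p = 0.0905). Ccnd2 and Ccnd3, the other D cyclins, had log2 differences of 0.17 and 0.03 (adjusted p 0.379 and 0.843), and their kinases Cdk6 and Cdk4 of 0.30 and 0.02 (adjusted p 0.179 and 0.938). E2f2, another activating E2F factor, had 1.60 and 1.88 in HFD, against 1.35 and 2.23 in LFD, so the HFD values lay between the LFD values. Ccne2, cyclin E2, had 0.119 and 0.0566 in HFD, against 0.0762 and 0.0947 in LFD, again with overlap. Cdk2, the partner of cyclin E, was not tested: its brightest probe was well above background on 1 of the 4 arrays, with 0.0719 and 0.0661 in HFD, against 0.0433 and 0.0579 in LFD.

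Of the genes that license origins and unwind DNA, 2 were called. Cdt1, which loads the MCM helicase onto origins, had 3.29 and 2.76 in HFD, against 1.72 and 1.49 in LFD, 1.88-fold higher (log2 change 0.91, SE 0.14, adjusted p = 0.0374; probe at chr8:125096893-125096952). Mcm3, a subunit of that helicase, had 2.68 and 2.62 in HFD, against 1.56 and 1.29 in LFD, 1.86-fold higher (log2 change 0.90, SE 0.13, adjusted p = 0.0326; probe at chr1:20793119-20793178), and its second probe was called as well, at 0.82. Both calls ended with median scaling, at an adjusted p of 0.0543 for Cdt1 and 0.0507 for Mcm3.

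The 6 MCM subunits form one ring, and the log2 changes of their transcripts ran between 0.07 for Mcm4 and 1.23 for Mcm5. Mcm5 had 1.08 and 1.104 in HFD, against 0.623 and 0.349 in LFD, a change of 1.23 that was not called (adjusted p = 0.0752). Mcm6 had 11.3 and 10.8 in HFD, against 7.96 and 5.33 in LFD, a change of 0.76 (adjusted p = 0.0973). Mcm2 had a log2 difference of 0.57 (adjusted p = 0.0793), with no overlap between diets. Mcm7, with 2.90 and 3.22 in HFD, against 3.03 and 2.50 in LFD, and Mcm4, with 4.54 and 4.26 in HFD, against 4.53 and 3.87 in LFD, overlapped between diets (adjusted p 0.489 and 0.708). Differences between subunits were not tested. Cdc6, which works with Cdt1 at origins, had a log2 difference of 0.38 (adjusted p = 0.140) on its brighter probe and of -0.04 on its other tested probe. The other probe lay near background, with 0.0658 and 0.0466 in HFD, and was well above it on 1 of 2 HFD arrays.

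Among genes that supply and carry out DNA synthesis, Pcna was called. Pcna, the sliding clamp of the replicative polymerases, had 13.0 and 12.2 in HFD, against 8.60 and 7.90 in LFD, 1.53-fold higher (log2 change 0.61, SE 0.10, adjusted p = 0.0416; probe at chr2:132075420-132075557). The call of Pcna ended with quantile scaling (adjusted p = 0.0511) and with median scaling (adjusted p = 0.0691). Tk1, thymidine kinase 1 of the nucleotide salvage pathway, had the largest change of the G1/S and replication genes, 1.88 on the log2 scale, and was not called (SE 0.41, adjusted p = 0.0623). Its signals were 1.04 and 0.888 in HFD, against 0.389 and 0.176 in LFD, with the LFD arrays 2.21-fold apart. Rrm2, the S phase subunit of ribonucleotide reductase, had 0.194 and 0.187 in HFD, against 0.133 and 0.0465 in LFD, a change of 1.28 (adjusted p = 0.177), or 0.65 with normexp background correction (adjusted p = 0.0747). Rrm1, its partner subunit, had a log2 difference of 0.23 (adjusted p = 0.277), and Tyms, thymidylate synthase, of 0.42 (adjusted p = 0.0666), both without overlap between diets.

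Of the 22 tested G1/S and replication genes, 5 were called higher and none lower, against 5.75% and 5.61% of all tested genes. Both HFD arrays lay above both LFD arrays for 16, against 36.2% of all tested genes, and 6 overlapped. Their median log2 change was 0.49, with a range of -0.05 to 1.88.

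The genes of G2 and mitosis had positive changes throughout, and most of them were not called. All 17 that were tested had both HFD arrays above both LFD arrays, against 36.2% of all tested genes. Their log2 changes ran from 0.51 to 2.07 with a median of 1.24, and 3 were called higher, against 5.75% of all tested genes. Without Aurkb and Top2a, which passed the filter through the HFD arrays alone, the other 15 ran from 0.51 to 1.84 with a median of 1.18. Ube2c, the ubiquitin-conjugating enzyme of the anaphase-promoting complex, had 0.809 and 0.829 in HFD, against 0.424 and 0.353 in LFD, 2.12-fold higher (log2 change 1.08, SE 0.13, adjusted p = 0.0242; probe at chr2:164598016-164598075). Aurka, the Aurora kinase of the spindle poles, had 1.27 and 1.21 in HFD, against 0.679 and 0.573 in LFD, 1.99-fold higher (log2 change 0.99, SE 0.12, adjusted p = 0.0263; probe at chr2:172181734-172181793). Ccnb1, cyclin B1, which activates Cdk1 for entry into mitosis, had 0.152 and 0.123 in HFD, against 0.0712 and 0.0700 in LFD, 1.94-fold higher (log2 change 0.95, SE 0.14, adjusted p = 0.0334; probe at chr13:101548974-101549033). These Ccnb1 signals lay near background, well above it on 1 of 2 HFD arrays, and its other tested probe gave 1.29 without a call (adjusted p = 0.160). The call ended with quantile scaling (adjusted p = 0.0570) and with the mean of its probes (adjusted p = 0.0845).

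The cyclins and kinase that drive mitosis, other than Ccnb1, were not called. Cdk1, the mitotic kinase, had 0.393 and 0.282 in HFD, against 0.148 and 0.0595 in LFD, a change of 1.83 (SE 0.49, adjusted p = 0.0867). Ccnb2, cyclin B2, had 1.84 and 1.52 in HFD, against 1.11 and 0.329 in LFD, a change of 1.47 (adjusted p = 0.180). Ccna2, cyclin A2, had 0.953 and 0.836 in HFD, against 0.599 and 0.238 in LFD, a change of 1.24 (adjusted p = 0.153). In each of these the HFD arrays lay above both LFD arrays, and LFD replicate 2 lay far below LFD replicate 1.

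The chromosomal passenger complex, which corrects faulty spindle attachments, was represented in the list by Aurkb and Birc5. Incenp and Cdca8, its subunits among the other mitosis genes counted below, changed by 0.88 and 1.17. Incenp was called higher (adjusted p = 0.0430) and Cdca8 was not (adjusted p = 0.0880). Aurkb, the kinase of the complex, had 0.230 and 0.182 in HFD, against 0.101 and 0.0235 in LFD. The Aurkb change of 2.07 came with an SE of 0.74 (adjusted p = 0.139), the LFD arrays were 4.29-fold apart, and only 1 of them was well above background. With normexp background correction the Aurkb change was 0.998, with a call (adjusted p = 0.0203). The changes of Birc5 and Cenpe were then 1.70 and 1.66, against 1.83 and 1.84 in the main fit. With normexp both exceeded that of Aurkb, and both were called. Birc5, survivin, had 3.98 and 3.34 in HFD, against 1.78 and 0.595 in LFD, a change of 1.83 (adjusted p = 0.107).

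The remaining genes of the spindle and its checkpoint were not called. Cenpe, a kinetochore motor, had 3.03 and 2.45 in HFD, against 1.14 and 0.506 in LFD, a change of 1.84 (adjusted p = 0.0677). Bub1b and Bub1, checkpoint kinases of the kinetochore, had log2 differences of 1.01 and 0.51 (adjusted p 0.0936 and 0.0833), and Cdc20, the activator of the anaphase-promoting complex that the checkpoint holds back, of 1.11 (adjusted p = 0.254). Cdc20 had 1.48 and 1.41 in HFD, against 1.20 and 0.371 in LFD. Plk1, a kinase of mitotic entry and exit, had a log2 difference of 1.18 (adjusted p = 0.146), Prc1, which bundles the central spindle, of 1.42 (adjusted p = 0.138), and Nusap1, a microtubule-binding protein of the spindle, of 0.92 (adjusted p = 0.133). Kif11, the motor that separates the spindle poles, was not tested: its brightest probe was well above background on 1 array of each diet, with 0.0593 and 0.0503 in HFD, against 0.0461 and 0.0222 in LFD.

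Mki67, the proliferation antigen Ki-67, had 2.77 and 2.57 in HFD, against 1.84 and 0.512 in LFD, a change of 1.46 that was not called (SE 0.64, adjusted p = 0.194). Its second probe gave 1.41 (adjusted p = 0.186). Top2a, topoisomerase II alpha, which untangles replicated chromosomes, had 0.221 and 0.170 in HFD, against 0.137 and 0.0447 in LFD, a change of 1.31 (adjusted p = 0.196). For both genes the HFD arrays lay above the LFD arrays, and LFD replicate 1 was nearer to the HFD arrays than to LFD replicate 2.

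**Figure D3:**
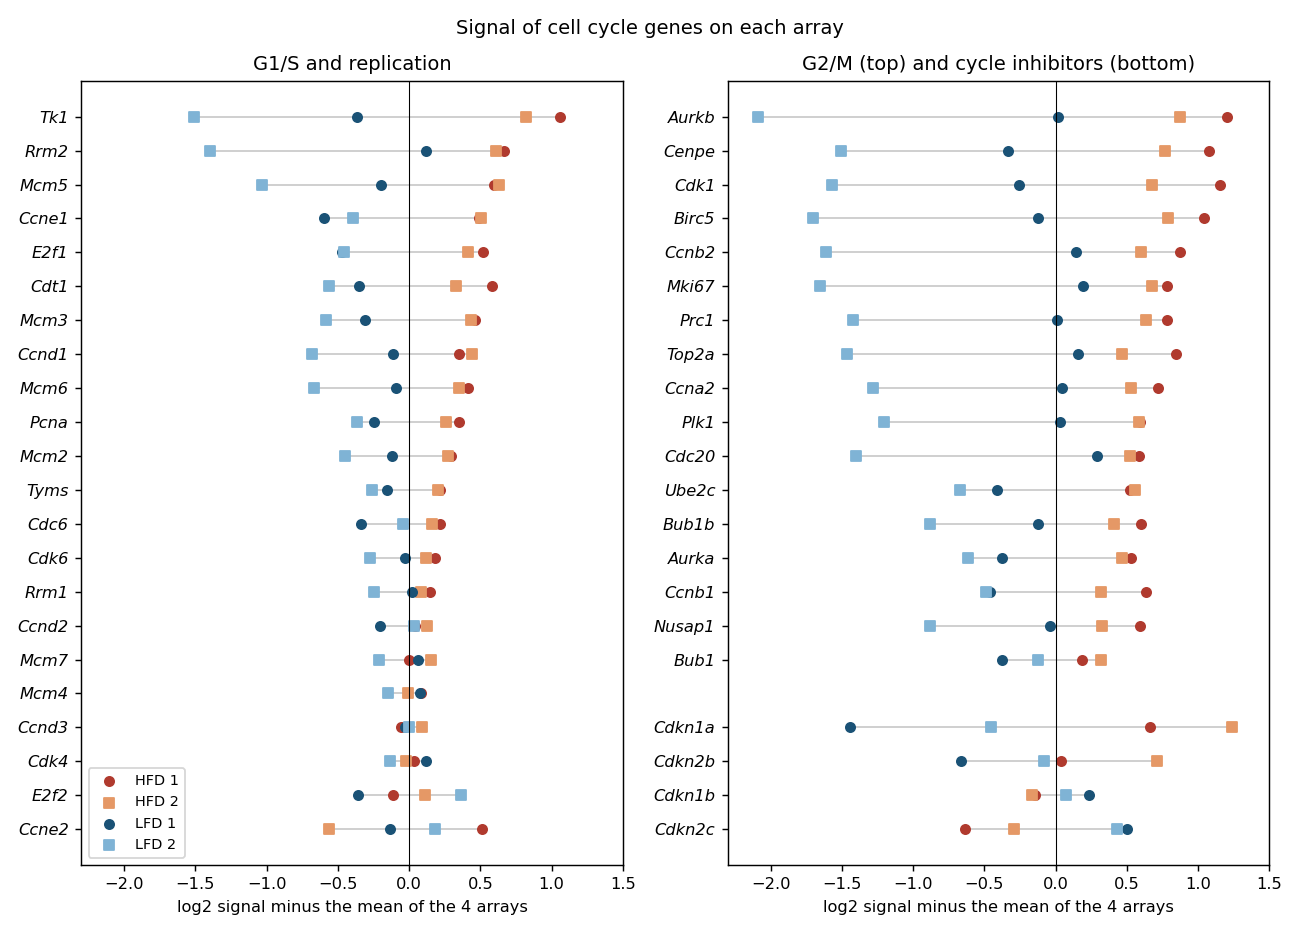
Log2 signal of each tested cell cycle gene on the 4 arrays, minus that gene's mean over the 4 arrays, for G1/S and replication genes (left) and G2/M genes with cycle inhibitors (right). LFD replicate 2 was the lowest array for 16 of the 17 G2/M genes, against 3140 of all 17736 tested genes. The HFD arrays lie close together for most genes.

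The G2/M genes separated the LFD arrays as well as the diets. LFD replicate 1 exceeded LFD replicate 2 for 16 of the 17, with a median ratio of 2.49, and by at least 2-fold for 11 of them, against 1.47% of all tested genes. For the G1/S and replication genes the median ratio was 1.18, with 2 of 22 at 2-fold or more, and over all tested genes it was 0.964. HFD replicate 1 exceeded HFD replicate 2 for 15 of the 17 G2/M genes, with a median ratio of 1.14. Of all 17736 tested genes, LFD replicate 1 exceeded LFD replicate 2 for 7173, and HFD replicate 1 exceeded HFD replicate 2 for 7759. Set against LFD replicate 1 alone the median log2 difference of the G2/M genes was 0.63, and against LFD replicate 2 alone it was 1.96. The same values for the G1/S and replication genes were 0.44 and 0.57.

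**Figure D4:**
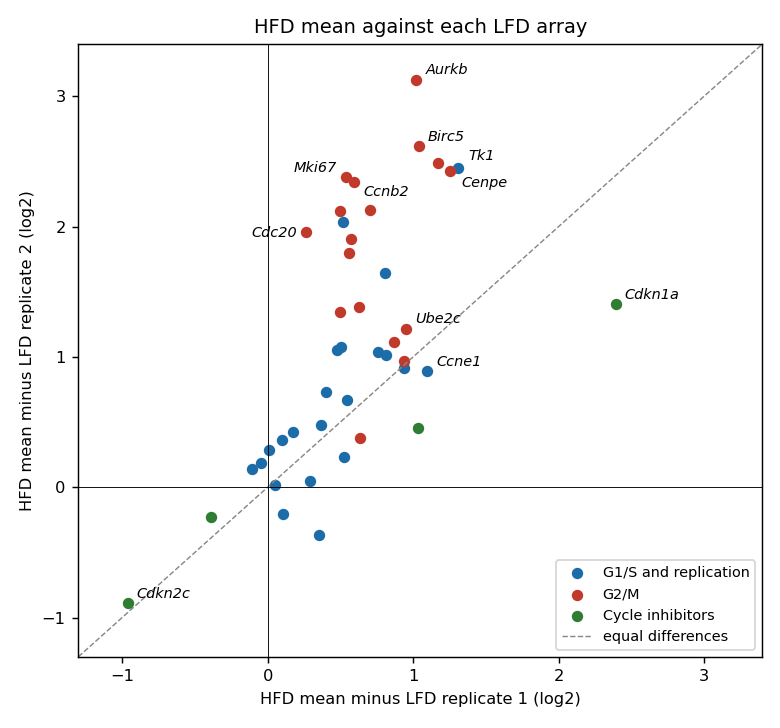
Mean log2 signal of the HFD arrays minus LFD replicate 1 (horizontal axis) and minus LFD replicate 2 (vertical axis), 1 point per tested cell cycle gene; on the dashed line both differences are equal. Most G2/M genes lie well above the line, with medians of 0.63 and 1.96, whereas Ccne1, Ube2c and Cdkn2c lie near it.

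The calls depended on which array was left out. Without LFD replicate 1, 14 genes were called higher: Tk1, Rrm2, Mcm5, Aurkb, Cenpe, Birc5, Ccnb2, Mki67, Prc1, Ccna2, Plk1, Cdc20, Ube2c and Aurka. Without LFD replicate 2 the count was 1, Ccne1, and it was 0 in limma without HFD replicate 1 and again without HFD replicate 2, with 14 genes higher at an unadjusted p under 0.05 in each case. The call of Cdkn2c was lost when any array was left out. The lowest change among the tested G2/M genes was 0.27 without LFD replicate 2 and stayed above 0 in every alternative that was run. With each array scaled by its median, 5 of the genes were called higher and 818 of all genes, against 1309 lower, beside 1019 higher and 995 lower with scaling by the 75th percentile.

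The cycle inhibitors differed among themselves. Cdkn2c, an inhibitor of Cdk4 and Cdk6 of the INK4 family, had 13.6 and 17.3 in HFD, against 29.9 and 28.5 in LFD. Both HFD arrays lay well below the LFD arrays, and Cdkn2c fell by 0.93 on the log2 scale (SE 0.15, adjusted p = 0.0391; probe at chr4:109333779-109333838), 1.90-fold lower in HFD. A second probe, which overlaps the first (chr4:109333757-109333818), gave -0.94 (adjusted p = 0.0625). The call ended where the probes of a gene were averaged (adjusted p = 0.0506).

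Cdkn1a, the inhibitor induced by p53, had 2.75 and 4.12 in HFD, against 0.641 and 1.27 in LFD. Its change of 1.90 was 3.73-fold and was not called (SE 0.40, adjusted p = 0.0594). The diets did not overlap, and in both diets replicate 2 was higher than replicate 1, whereas 16 of the 17 G2/M genes were lower on LFD replicate 2. Cdkn2b, another INK4 inhibitor, had 3.29 and 5.26 in HFD, against 2.03 and 3.04 in LFD, a change of 0.74 (adjusted p = 0.186), with HFD replicate 2 and LFD replicate 2 the higher arrays of their diets. Cdkn1b, an inhibitor of cyclin E kinase in resting cells, had 1.08 and 1.07 in HFD, against 1.41 and 1.26 in LFD, a change of -0.31 (adjusted p = 0.129). Its second tested probe gave 0.01 near background, with 0.0810 and 0.0751 in HFD, against 0.0756 and 0.0791 in LFD. That probe was well above background on 1 of 2 HFD arrays. Cdkn2a was not well above background on any array. The 4 tested inhibitors had a median change of 0.22, with 2 above 0 and 2 below.

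Other genes of replication and mitosis were counted in the same way, beside 5.75% called higher and 5.61% called lower over all tested genes. Of 32 other replication genes 31 were tested, 4 were called higher and none lower, and the median log2 change was 0.43. The called genes were Chaf1a (0.98, adjusted p = 0.0195) and Asf1b (1.04, adjusted p = 0.0495), histone chaperones, Gins2 (0.70, adjusted p = 0.0359), a subunit of the replicative helicase, and Fen1 (0.84, adjusted p = 0.0494), the flap endonuclease. Of 53 other mitosis genes 45 were tested, 7 were called higher and none lower, and the median was 0.93. Spc25, a kinetochore subunit of the Ndc80 complex, had the largest of these changes, with 1.17 and 1.05 in HFD, against 0.191 and 0.136 in LFD (log2 change 2.78, adjusted p = 0.0145). Foxm1, the transcription factor that acts on G2/M genes, changed by 0.76 (adjusted p = 0.0251). Of the 6 with the smallest adjusted p, the others were called as follows. Kif2c and Kif20b, mitotic kinesins, Ncaph, a condensin subunit, and Ccnf, cyclin F, changed by 0.86, 0.68, 0.84 and 1.13. Ccnf, Ckap2l and Pbk passed the filter through the HFD arrays alone, so a difference of some size was built into their inclusion. The count of 7 includes Ccnf, and the median of 0.93 includes all 3 of these genes. LFD replicate 1 exceeded LFD replicate 2 for 40 of the 45 mitosis genes, with a median ratio of 1.59.

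Of 32 other brakes and regulators 29 were tested, and the median was 0.07. Of these, 4 were called higher and 1 lower, against 5.75% and 5.61% of all tested genes. Gadd45b, a stress-induced growth arrest gene, changed by 1.31 (adjusted p = 0.0179), Btg2, an antiproliferative gene, by 0.53 (adjusted p = 0.0445), Skp2, which marks Cdkn1b protein for degradation, by 0.72 (adjusted p = 0.0445), and Pkmyt1, an inhibitory kinase of Cdk1, by 0.50 (adjusted p = 0.0458). Cdkn1c, a further cyclin-dependent kinase inhibitor, fell by 0.94 on the log2 scale (adjusted p = 0.0276).

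Markers of several cell types were measured beside these genes, as summed relative signal. In each sum the brighter probes weigh more. On HFD replicate 1, Lyz2 gave 182 of the macrophage sum of 324, and Itgax 5.27. Fabp4 gave 417 of the adipocyte sum of 1036 on that array, and Dcn 146 of the stromal progenitor sum of 203. Adipocyte markers, which check the labelled tissue, were present, with sums of 1036 and 1112 in HFD, against 1027 and 1128 in LFD. Of the 8, none was called higher and Retn, the adipokine resistin, was called lower (log2 change -0.90, adjusted p = 0.0281), while Lep, leptin, had a change of 2.18 without a call (adjusted p = 0.0729). Macrophage markers summed to 324 and 332 in HFD, against 198 and 179 in LFD, with 9 of 12 called higher and all 12 well above background on every array. T cell markers summed to 2.04 and 3.93 in HFD, against 6.90 and 1.59 in LFD, and B cell markers to 1.66 and 2.40 in HFD, against 6.62 and 1.28 in LFD. None of these was called, and Blk, a B cell kinase, was not well above background on any array. Their median ratio of LFD replicate 1 over LFD replicate 2 was 3.72 for T cell markers and 4.08 for B cell markers, higher on the same array as the G2/M genes. Between the HFD arrays the order was the opposite. HFD replicate 2 exceeded HFD replicate 1 for all 7 tested T cell markers and all 6 tested B cell markers. By contrast, 15 of 17 G2/M genes were higher on HFD replicate 1, as were 7759 of all 17736 tested genes.

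Mesothelium markers summed to 11.6 and 9.14 in HFD, against 29.9 and 31.9 in LFD, with 7 of 7 called lower. Epithelium markers summed to 1.40 and 1.28 in HFD, against 7.74 and 8.23 in LFD, and Krt18 gave 6.03 and 6.12 of the LFD sums. Of the 4 tested, 3 were called lower, and Krt14 had a log2 difference of 0.26 without a call. Epcam, Cldn4 and Elf5 were not well above background on any array. Stromal progenitor markers summed to 203 and 215 in HFD, against 266 and 263 in LFD, with 2 of 7 called lower, and endothelial markers to 37.2 and 39.9 in HFD, against 43.1 and 41.0 in LFD, with none called. The part of any of these cell types in the changes of the cell cycle genes was not tested.

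**Figure D5:**
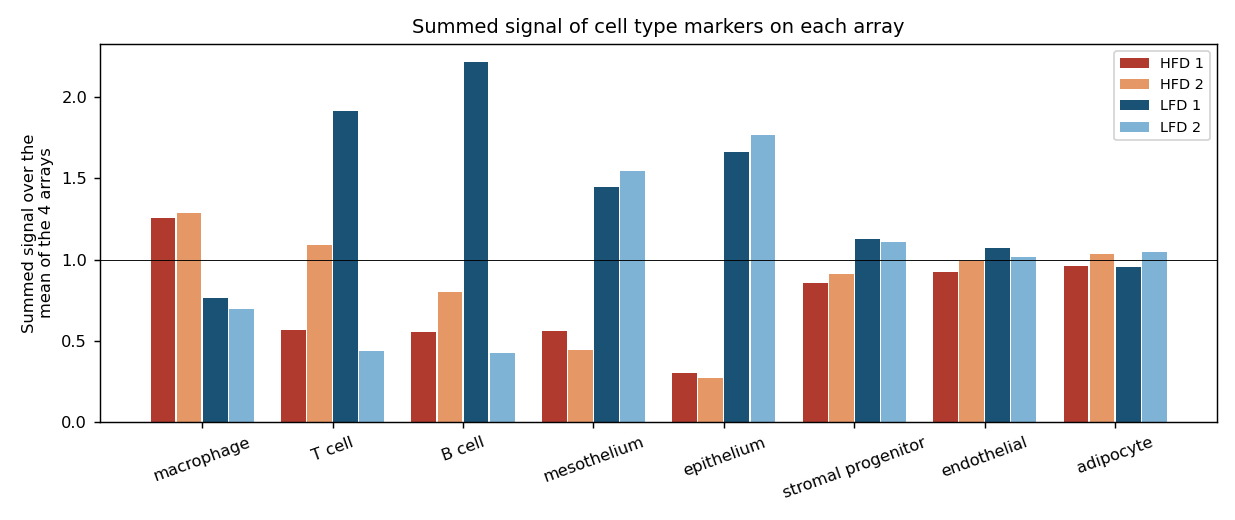
Summed relative signal of each cell type marker list on the 4 arrays, divided by the mean of the 4 arrays. Brighter probes weigh more in each sum. Macrophage sums were higher on both HFD arrays, mesothelium and epithelium sums on both LFD arrays, and T cell and B cell sums were highest on LFD replicate 1 and lowest on LFD replicate 2.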

How the data were processed

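RNA (500 ng per sample) from 4 fat samples, 2 per diet, was labelled with Cy3 and measured on 1-colour Agilent arrays with probes of 60 bases. The authors deposited scanner output, and its spot intensity values, on a linear scale, were used. Feature Extraction had subtracted background and removed spatial trends from each array, per the file headers, and had not scaled arrays to each other. Its version is 11.5.1.1 in the submitters' processing notes and 11.0.1.1 in the headers. A value table was also deposited and holds a ratio, each processed signal over a constant of its array near the 75th percentile, found by dividing one by the other. It is linear and uncentred, runs in the direction of signal, and its column medians were 0.130 and 0.131 for HFD and 0.117 and 0.127 for LFD.

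Each array held 45018 spots, and 43379 were not controls, for 41174 probes. Saturation touched 0 spots. Outlier spots, 60 to 115 on an array, were dropped, and repeat spots were averaged per probe. From the deposited intensity values, log2 signals were taken and the 75th percentile of each array subtracted. A probe counted as well above background where over 0.5 of its spots were. The diets were compared over 26054 probes with two-sided tests from eBayes after lmFit (limma version 3.58.1 under R 4.3.3, with data.table at 1.17.8), after 3 with a missing value were dropped, with Benjamini-Hochberg adjustment. Residual degrees of freedom were 2, and the prior added 2.24. Each gene was represented by the brightest of its tested probes, on average over the arrays, and 11 genes of the list had several tested probes, and Cdc6 and Cdkn1b had probes of opposite sign. Gene names were updated through accessions in a RefSeq table, and the cell cycle genes were matched by the files' own names. By accession 27668 probes matched, of which 1843 changed name, and the 13506 without a match kept the files' name. Coordinates of probes (build mm9) were copied from the files, and no annotation of mm9 was used.

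The genes, the other pathway lists and the markers were chosen with earlier results of these data known. Every gene of the list is accounted for, and of each other pathway list up to 6 called genes with the smallest adjusted p are named. Incenp and Cdca8 are named as well, beside Aurkb and Birc5. Promoters were shown for up to 3 called G1/S genes, 3 called G2/M genes and 1 inhibitor of largest fold, except those whose start lay over 20 bases inside the gene. The number of arrays limits the precision. The procedure was also run on data simulated from the fitted model with independent errors. Such data cannot test for technical replicates, unequal arrays or signal near background. Alternatives were quantile or median scaling, normexp background correction (offset 50), the value table in place of scanner values, no filter or a stricter one on dim probes, outlier spots kept, a mean over the probes of each gene, eBayes with trend and robust options, a block for replicate number, and leaving out each array. All arrays shared 1 slide, so a block for the slide could not be fitted. The labels do not say whether equal replicate numbers share mice or handling. Deviations of same-numbered arrays from their diet means had r = -0.0046 over 26054 probes, a value over all probes that cannot settle this. For the G2/M genes replicate 1 was higher than replicate 2 in 16 of 17 in LFD and 15 of 17 in HFD.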

Additional observations from a re-analysis of the deposited data

How the results depend on the processing

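Counts of called cell cycle genes moved with the settings, and directions mostly held. The count called higher, 8, was 17 with normexp background, 6 with quantile scaling (Pcna and Ccnb1 lost), 5 with median scaling (Cdt1, Mcm3 and Pcna lost), 12 with only probes well above background on all arrays, 7 with the mean of a gene's probes and 11 with trend and robust options. It was 8 with the deposited value table and with outlier spots kept. Cdkn2c, the 1 gene called lower, was called in those settings except the mean of probes, where the count was 0. Over all genes, normexp gave 1618 higher, the stricter filter 1598, and trend and robust options 1826 higher and 1808 lower. With no filter on dim probes limma called 0 of the 46 genes and 0 and 0 of all genes in the 2 directions, although 21 of the 46 were higher and 1 lower, and 5608 of all genes differed, at an unadjusted p under 0.05. With the replicate number as a block, 1 cell cycle gene was called higher (Cdkn1a) and 0 lower, and 220 and 208 of all genes. The labels do not say whether equal numbers mark paired arrays.

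Leaving out 1 array gave 0 to 14 cell cycle genes called higher and 0 called lower, and 9 to 470 higher and 9 to 341 lower among all genes, where a lone array is assumed to vary like the other diet. The median of the G2/M genes then ran from 0.63 to 1.96, that of the G1/S genes from 0.44 to 0.57 and that of the inhibitors from 0.11 to 0.32. The G1/S median was 0.39 with normexp, and the inhibitor median was 0.74 with no filter, which adds Cdkn2a. Genes with changes near 0 turned direction. Ccnd3 gave -0.00522 with normexp, -0.00507 with quantile and -0.0609 with median scaling, and -0.0401 to 0.105 with an array left out. Cdk4 gave -0.00176 with quantile and -0.0771 with median scaling, and -0.11 to 0.14 with an array left out. Mcm4 gave -0.0228 with median scaling, and -0.0422 to 0.183 with an array left out. Ccne2 gave 0.11 with normexp, and -0.58 to 0.48 with an array left out. E2f2 gave 0.00684 with normexp, and -0.36 to 0.36 with an array left out. The cause was not tested. Signal near background limits Ccnb1, Aurkb, Rrm2, Top2a and Ccne2: normexp gave 0.998 for Aurkb and 0.65 for Rrm2, against 2.07 and 1.28. Leaving out genes that passed the filter through HFD alone, chosen after seeing the data, gave medians of 1.18 for 15 G2/M genes and 0.42 for 21 G1/S genes.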
